A study of Mus musculus with 12 samples.

Results

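The Toll-like receptors Tlr2, Tlr3 and Tlr4, the co-receptor Cd14 and the adaptors Myd88 and Ticam1 were followed in mouse embryonic fibroblasts (MEFs) with and without Rictor, before and after interferon-alpha (IFN-alpha). The members are the 6 genes of that name, and every probe whose gene symbol in the probe annotation is one of them was taken, whatever its values. That gave 9 probes, 3 for Tlr4, 2 for Myd88 and 1 for each of the others. Only the 17003 probes in the authors' table of log2 values could carry a name, of the 45281 on the array. Further probes of these genes, and of the gene lists below, may therefore be missed. All 6 genes and 8 of the 9 probes passed the filter on dim probes, among 18604 features fitted, of which 8412 were named genes.

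The cells were immortalized MEFs, connective tissue cells grown from embryos, and Rictor is a subunit found in mTOR complex 2, which phosphorylates Akt and related kinases. The groups were untreated Rictor+/+ cells (arrays 1, 5 and 9), Rictor+/+ cells given mouse IFN-alpha at 2500 U/ml for 24 hours (arrays 2, 6 and 10), untreated Rictor-/- cells (arrays 3, 7 and 11) and Rictor-/- cells given the same IFN-alpha treatment (arrays 4, 8 and 12). The study asked how Rictor bears on the response to type I interferon. RNA was read on Illumina mouse BeadChips, with 1 array per sample and 3 per group. As far as the labels tell, each genotype is 1 immortalized line, so genotype and line cannot be told apart. A treatment field common to all samples names small interfering RNAs against Rictor, which conflicts with a knockout, and the samples were grouped by the genotype field. Whether the 3 samples of a group were grown as separate cultures is not stated, so p-values measure only the spread between these arrays.

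Toll-like receptors recognise microbial molecules. Tlr2 binds bacterial lipoproteins at the cell surface, Tlr4 binds lipopolysaccharide there together with Ly96, and Tlr3 binds double-stranded RNA in endosomes. Cd14, a surface protein anchored by a lipid, hands lipopolysaccharide and lipopeptides to these receptors. Myd88 is the adaptor of Tlr2, Tlr4 and most of the family and leads to NF-kappaB, whereas Ticam1 (TRIF) is the adaptor of Tlr3, is also used by Tlr4, and leads to Irf3 as well. Fibroblasts carry several of these receptors and answer their ligands with cytokines and chemokines, and type I interferon is known to induce some of the receptors and adaptors.

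The promoters of Myd88, Tlr3 and Tlr2, the 3 members raised by IFN-alpha in Rictor+/+ cells, are shown because ISRE and GAS elements are known promoter elements of interferon-induced genes. Each window runs from 250 bases before to 50 bases after the gene's start, is given 5′ to 3′ on the gene's strand, and comes from RefSeq (GRCm38.p6). The windows are chr9:119339969-119340268 (minus strand) for Myd88, chr8:45410331-45410630 (minus strand) for Tlr3 and chr3:83841559-83841858 (minus strand) for Tlr2. Capitals mark letters that match a motif.
Myd88: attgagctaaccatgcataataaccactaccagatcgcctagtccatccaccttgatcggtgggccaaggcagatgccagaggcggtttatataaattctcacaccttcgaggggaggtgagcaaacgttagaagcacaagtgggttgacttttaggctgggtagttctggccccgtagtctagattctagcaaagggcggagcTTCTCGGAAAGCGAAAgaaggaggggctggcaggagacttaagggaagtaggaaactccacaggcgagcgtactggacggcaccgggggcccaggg
Tlr3: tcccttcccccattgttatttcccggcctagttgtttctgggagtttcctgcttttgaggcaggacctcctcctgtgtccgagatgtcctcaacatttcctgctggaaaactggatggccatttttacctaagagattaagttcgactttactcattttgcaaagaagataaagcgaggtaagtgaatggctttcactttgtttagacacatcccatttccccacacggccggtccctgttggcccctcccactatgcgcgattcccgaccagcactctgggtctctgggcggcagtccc
Tlr2: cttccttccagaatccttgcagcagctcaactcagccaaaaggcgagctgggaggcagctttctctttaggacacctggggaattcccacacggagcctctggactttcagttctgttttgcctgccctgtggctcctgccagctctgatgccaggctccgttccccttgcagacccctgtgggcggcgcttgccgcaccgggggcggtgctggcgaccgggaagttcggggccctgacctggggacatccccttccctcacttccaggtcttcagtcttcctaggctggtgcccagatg

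The motifs searched on both strands were the ISRE core (GAAA, any 2 bases, GAAA), held by 3.44% of 32851 promoter windows of this length, and the GAS motif TTCNNNGAA, held by 8.3% of them. The promoter table has 4 of the 6 members (Tlr2, Tlr3, Myd88 and Ticam1), and it has none for Tlr4 and Cd14. The Myd88 window holds 1 ISRE core, GAAAGCGAAA, starting at position -40 from the gene's start, and 1 GAS motif, TTCTCGGAA, starting at -46. They overlap, so the capitals form 1 run. No match was found in the windows of Tlr2, Tlr3 and Ticam1, which says only that these letters are not in these windows.

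The arrays fell into sets of 6 by their background, the most frequent signal on an array. It was 206 to 236.3 on arrays 1, 2, 3, 4, 5 and 6 and 105 to 124.2 on arrays 7 to 12. Each set held all 4 groups, but the high set held 4 arrays of Rictor+/+ cells and the low set 4 of Rictor-/- cells, so that genotype and background overlap. No batch is named in the labels. A probe is said to be above background where its upper-tail probability was under 0.01. Elsewhere it is said to be below background, even if its signal exceeded the most frequent one. Within the high set each Rictor-/- group has 1 array, and within the low set each Rictor+/+ group has 1, so a test within a set assumes that a lone array varies like the other groups. Total signal was 39160370 to 62338146 on 11 arrays and 21292305 on array 12, an IFN-treated Rictor-/- array, where 32.9% of probes lay above background against 35.6% to 49.4% elsewhere. The 1 Rictor probe was above background on 7 of the 12 arrays and was not called different between the lines (limma adjusted p = 0.797 untreated and 0.759 with IFN-alpha). Its place relative to the deletion is not known, so it checks nothing. All 10 fibroblast markers were above background on every array of Rictor+/+ cells, and 9 on every array of Rictor-/- cells, where Lum was above it on none. Of 14 macrophage and leukocyte markers, 4 had a named probe. Lyz1 and Lyz2 were above background on no array. Csf1r was above it on 3 untreated and 2 treated Rictor+/+ arrays, and on 2 untreated and 1 treated Rictor-/- arrays. Coro1a was above it on 3 untreated and 2 treated arrays of each genotype.

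Values below are normalized log2 intensities, and changes are differences of group means ± SE from one limma model over all 12 arrays, with 3 arrays per group. A feature was called at a Benjamini-Hochberg adjusted p under 0.05 over all 18604 features. The IFN responses of the genotypes and the comparisons between genotypes share groups, so they are not independent of each other, and their values are set side by side. In the IFN response of Rictor+/+ cells 3 of 6 members were raised, against 1.95% of all features, and none was lowered, against 0.274%. Among Rictor-/- cells 1 of 6 was raised, against 0.736% of features, and none was lowered, against 0.0323%. No member's response was called different between the genotypes by limma, where 0.339% of features were (0.317% with the lower response in Rictor-/- cells), although 2 members (Tlr2 and Tlr3) had an unadjusted p under 0.05, as did 5.45% of features. Between untreated lines 2 of 6 members were higher in Rictor-/- cells, against 5.81% of features, and none was lower, against 6.22%. With IFN-alpha 1 was higher, against 6.61%, and 1 was lower, against 8.18%. The median change over the 6 members was 0.91 in the IFN response of Rictor+/+ cells and 0.32 in that of Rictor-/- cells, where the median over all features was -0.04 in both.

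**Figure D1:**
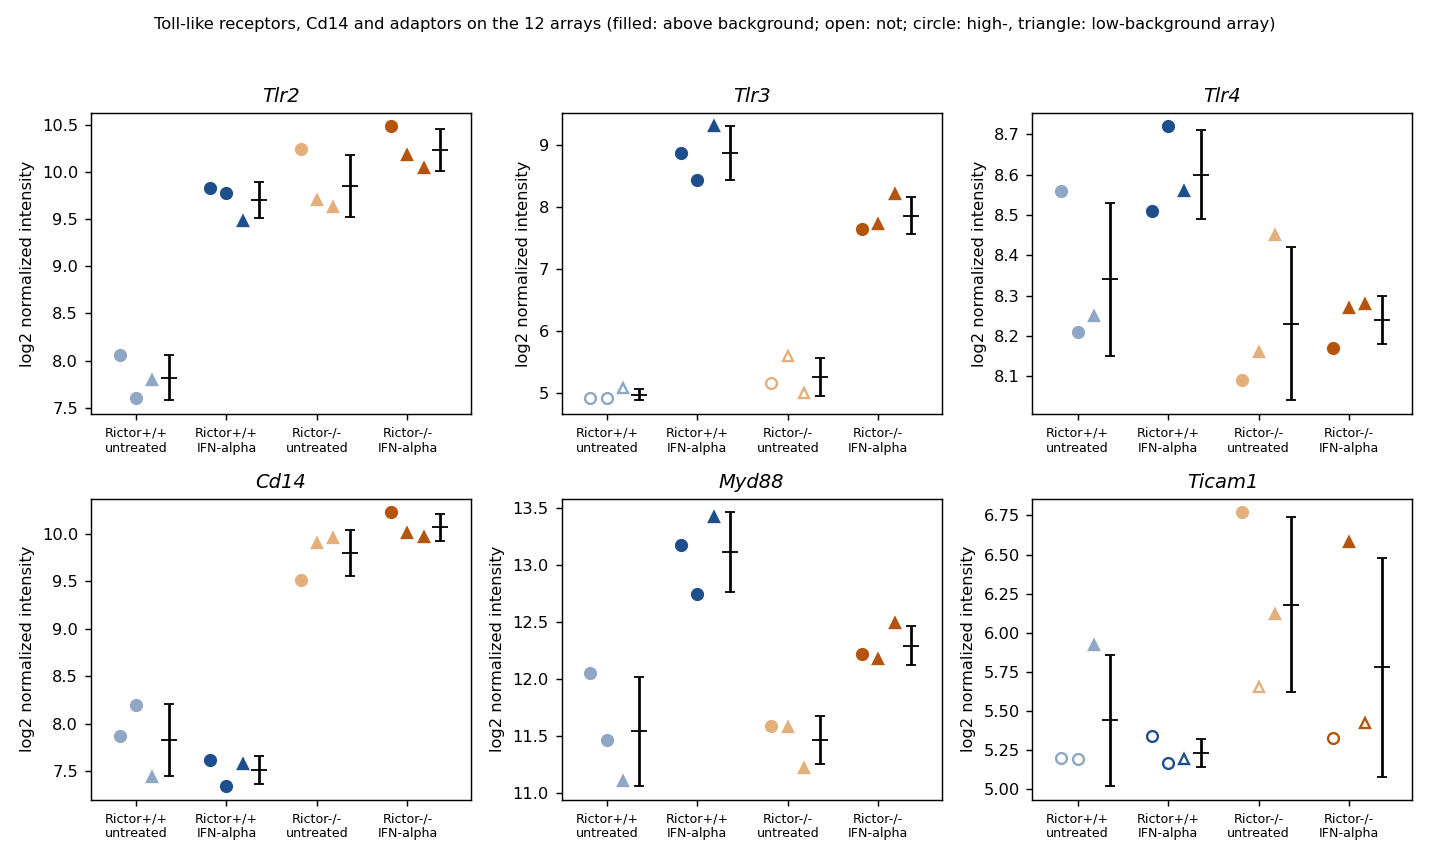
Normalized log2 intensity of the 6 members (1 panel each, with its own y axis) on each of the 12 arrays, by group, with points for arrays (filled above background, open below it, circles for high and triangles for low background) and bars for the group mean ± SD. Tlr3 is above background on the 6 IFN-treated arrays alone, all 6 Rictor-/- arrays of Cd14 lie above all 6 Rictor+/+ arrays, and Tlr2 is lowest on the 3 untreated Rictor+/+ arrays.

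Among the receptors, Tlr2 was lowest in untreated Rictor+/+ cells. There its probe ILMN_2733733 read 8.06, 7.60 and 7.79 on arrays 1, 5 and 9. It read 9.83, 9.77 and 9.48 in IFN-treated Rictor+/+ cells (arrays 2, 6 and 10). It read 10.24, 9.70 and 9.63 in untreated Rictor-/- cells (arrays 3, 7 and 11), and 10.48, 10.18 and 10.04 in IFN-treated Rictor-/- cells (arrays 4, 8 and 12). All 9 arrays of the other groups thus lay above all 3 arrays of untreated Rictor+/+ cells, and untreated Rictor-/- cells overlapped IFN-treated Rictor+/+ cells. The share of features separated over 9 against 3 arrays was not computed. Of all features, 6.89% were higher on every treated than on every untreated Rictor+/+ array, and 17.3% were higher on every untreated Rictor-/- than on every untreated Rictor+/+ array.

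IFN-alpha raised Tlr2 by 1.88 ± 0.23 in Rictor+/+ cells, a 3.68-fold rise (limma adjusted p = 0.000254). The change in Rictor-/- cells was 0.38 ± 0.23 (95% interval -0.12 to 0.88, limma adjusted p = 0.821), with overlapping groups. The difference between these responses was -1.50 ± 0.33 (95% interval -2.21 to -0.79). Its unadjusted p was 0.000536, and over all features its limma adjusted p was 0.113, so it was not called. With arrays weighted by their reliability the difference was -1.53 and was called (limma adjusted p = 0.00737). Without IFN-alpha, Tlr2 was 4.11-fold higher in Rictor-/- than in Rictor+/+ cells (2.04 ± 0.23, limma adjusted p = 5.16e-05). This difference was 2.41 within the arrays of high background and 1.87 within those of low background (limma adjusted p = 0.013 and 0.0474), where one genotype in each set is a lone array. With IFN-alpha the lines differed by 0.54 ± 0.23 (limma adjusted p = 0.154). All 3 IFN-treated Rictor-/- arrays lay above all 3 IFN-treated Rictor+/+ arrays, as for 15.3% of features. The Tlr2 rise in Rictor+/+ cells was 1.97 within the high set (limma adjusted p = 0.0219) and 1.69 within the low set, which has 1 array per Rictor+/+ group (limma adjusted p = 0.325).

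Tlr3, the receptor for double-stranded RNA, was above background only after IFN-alpha. Its probe ILMN_2697002 read 4.92, 4.92 and 5.07 in untreated Rictor+/+ cells and 5.15, 5.59 and 4.99 in untreated Rictor-/- cells, below background on all 6 arrays. After IFN-alpha it read 8.87, 8.44 and 9.30 in Rictor+/+ cells. In IFN-treated Rictor-/- cells it read 7.64, 7.73 and 8.21. All 6 IFN-treated arrays were above background. Among them the highest of the Rictor-/- arrays lay below the lowest of the Rictor+/+ arrays, as for 14.6% of features.

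Tlr3 rose at least 6.64-fold in Rictor+/+ cells (limma adjusted p = 6.4e-07) and at least 3.64-fold in Rictor-/- cells (limma adjusted p = 6.36e-05), both measured against the background limit. Within the arrays of high and of low background the fitted change in Rictor-/- cells was 2.50 and 2.67, with limma adjusted p of 0.111 and 0.0516. The difference between the responses was not called (limma adjusted p = 0.394), and its size depends on the background of the untreated groups. With IFN-alpha, Tlr3 was 2.01-fold lower in Rictor-/- than in Rictor+/+ cells (-1.01 ± 0.26, limma adjusted p = 0.0186). That call was lost without array 2 (limma adjusted p = 0.0571), 4 (0.0709), 8 (0.0649) or 10 (0.0735), and in a fit of the 2 groups alone (limma adjusted p = 0.0642). The difference was -1.01 within the high set and -1.34 within the low set, with limma adjusted p of 0.201 and 0.204.

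Tlr4, the lipopolysaccharide receptor, showed no called difference. Its brightest probe, ILMN_2684234, read 8.56, 8.21 and 8.25 in untreated and 8.51, 8.72 and 8.56 in IFN-treated Rictor+/+ cells. The Rictor-/- arrays read 8.09, 8.16 and 8.45 untreated and 8.17, 8.27 and 8.28 with IFN-alpha. The groups overlapped except with IFN-alpha, where all Rictor-/- arrays were lower than all Rictor+/+ arrays, as for 14.6% of features. The response was 0.26 in Rictor+/+ cells (95% interval -0.16 to 0.67) and 0.00 in Rictor-/- cells (95% interval -0.41 to 0.42). Rictor-/- minus Rictor+/+ was -0.11 untreated (95% interval -0.52 to 0.30) and -0.36 with IFN-alpha (95% interval -0.77 to 0.05).

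Of the 3 Tlr4 probes, the 2 above background gave similar fitted changes with IFN-alpha. ILMN_2752966 had group means of 7.67, 7.91, 7.74 and 7.81 in untreated and treated Rictor+/+ and untreated and treated Rictor-/- cells, and none of its differences was called. ILMN_2690004 was below background on all 12 arrays. Pearson correlations between the probes over the 12 arrays were -0.24, 0.05 and 0.38, given as a description. With no called difference on either fitted probe, low correlations do not show that the probes disagree. Which of them reads the Tlr4 transcript best is not known, so each interval holds for its own probe.

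Cd14, which presents lipopolysaccharide to Tlr4 and lipopeptides to Tlr2, differed with genotype. Its probe ILMN_2742075 read 7.87, 8.20 and 7.44 in untreated Rictor+/+ cells and 7.62, 7.34 and 7.57 after IFN-alpha. Without Rictor it read 9.52, 9.91 and 9.96 untreated and 10.23, 10.01 and 9.97 after IFN-alpha. All 6 Rictor-/- arrays lay above all 6 Rictor+/+ arrays. The share of features separated in this way over 6 against 6 arrays was not computed. Among untreated arrays alone, 17.3% of features were higher on every Rictor-/- than on every Rictor+/+ array, and among IFN-treated arrays alone, 15.3%.

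Cd14 was 3.90-fold higher in Rictor-/- than in Rictor+/+ cells without IFN-alpha (1.96 ± 0.23, limma adjusted p = 7.16e-05). With IFN-alpha it was 5.90-fold higher (2.56 ± 0.23, limma adjusted p = 5.06e-06). The untreated difference was 1.48 within the arrays of high background (limma adjusted p = 0.0703) and 2.50 within those of low background (limma adjusted p = 0.0176). With IFN-alpha it was 2.75 and 2.42 (limma adjusted p = 0.00593 and 0.0162). In each of these fits 1 genotype is a lone array. The response to IFN-alpha was -0.33 ± 0.23 in Rictor+/+ cells (limma adjusted p = 0.817) and 0.27 ± 0.23 in Rictor-/- cells (limma adjusted p = 0.836). In Rictor-/- cells all treated arrays were higher than all untreated ones, as for 4.99% of features. The difference of the responses was 0.60 ± 0.33 (limma adjusted p = 0.995). Fibroblast markers moved with genotype too. The summed linear intensity of the 10 was 112000 to 156000 in untreated Rictor+/+ and 73700 to 101000 in untreated Rictor-/- cells, and 90400 to 126000 and 61200 to 79300 with IFN-alpha. Of the 10, 7 were called lower in Rictor-/- cells in each comparison, against 6.22% of features untreated and 8.18% with IFN-alpha. When single arrays were left out, 5 to 7 were called lower in each. The part of these markers in the Tlr2 and Cd14 differences was not tested.

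**Figure D2:**
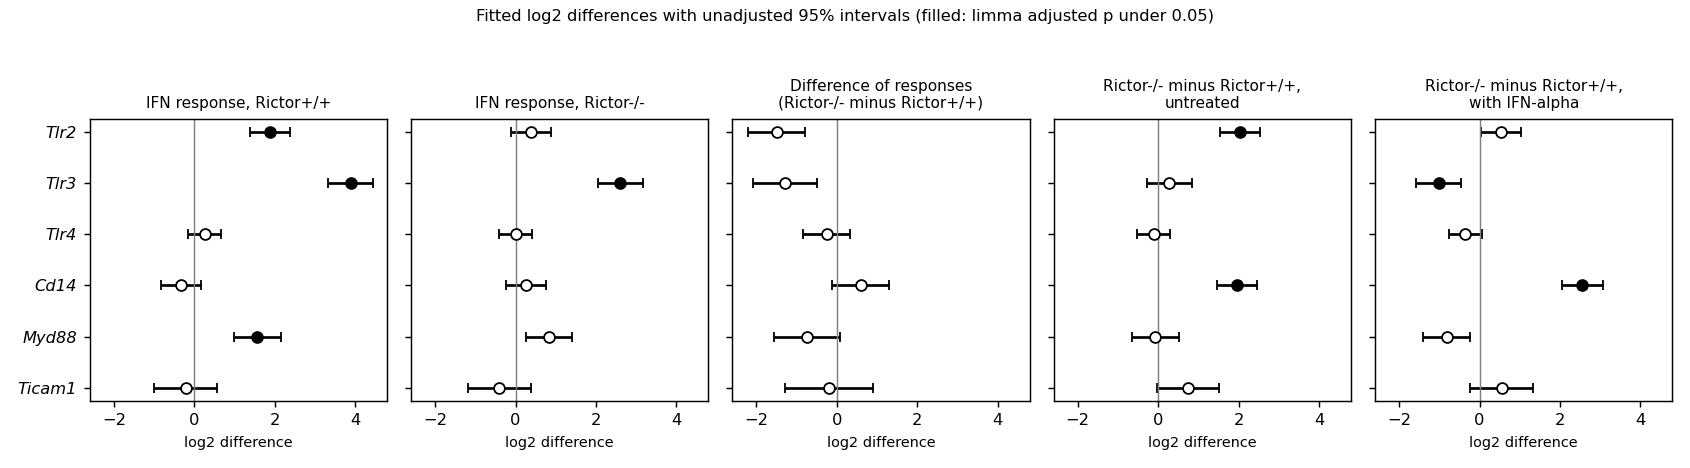
Fitted log2 difference of each member in the 5 comparisons (1 panel each), with bars for unadjusted 95% intervals and filled points for a limma adjusted p under 0.05. Tlr2, Tlr3 and Myd88 are raised by IFN-alpha in Rictor+/+ cells, Tlr3 alone is called in Rictor-/- cells, and Tlr2 and Cd14 are higher in untreated Rictor-/- cells.

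Of the adaptors, Myd88 rose with IFN-alpha in Rictor+/+ cells. Its brightest probe, ILMN_2971767, read 12.05, 11.46 and 11.10 in untreated and 13.17, 12.74 and 13.42 in IFN-treated Rictor+/+ cells. The Rictor-/- arrays read 11.59, 11.58 and 11.22 untreated and 12.22, 12.17 and 12.49 with IFN-alpha. In each genotype every treated array lay above every untreated one, as for 6.89% of features in Rictor+/+ and 4.99% in Rictor-/- cells.

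The rise in Rictor+/+ cells was 2.97-fold (1.57 ± 0.27, limma adjusted p = 0.00459). Within the high set it was 1.20 (limma adjusted p = 0.255) and within the low set 2.32 (limma adjusted p = 0.156). In Rictor-/- cells the change was 0.83 ± 0.27, with an unadjusted p of 0.00867 and a limma adjusted p of 0.509. The difference of responses was -0.74 ± 0.38 (limma adjusted p = 0.968). Untreated, the lines differed by -0.07 ± 0.27. With IFN-alpha all Rictor-/- arrays were lower than all Rictor+/+ arrays, as for 14.6% of features. The difference was -0.81 ± 0.27, with a limma adjusted p of 0.0609. This last difference was called under 8 of 25 alternatives, with limma adjusted p between 0.0225 and 0.0474, and was not called under the other 17. A second Myd88 probe, ILMN_2774646, gave an IFN change of 1.46 ± 0.35 in Rictor+/+ cells (limma adjusted p = 0.0475) and 1.11 ± 0.35 in Rictor-/- cells (limma adjusted p = 0.442). On this second probe the IFN-treated lines overlapped, with a difference of -0.67 ± 0.35 (limma adjusted p = 0.226). The Myd88 probes had a Pearson correlation of 0.93 over the 12 arrays.

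**Figure D3:**
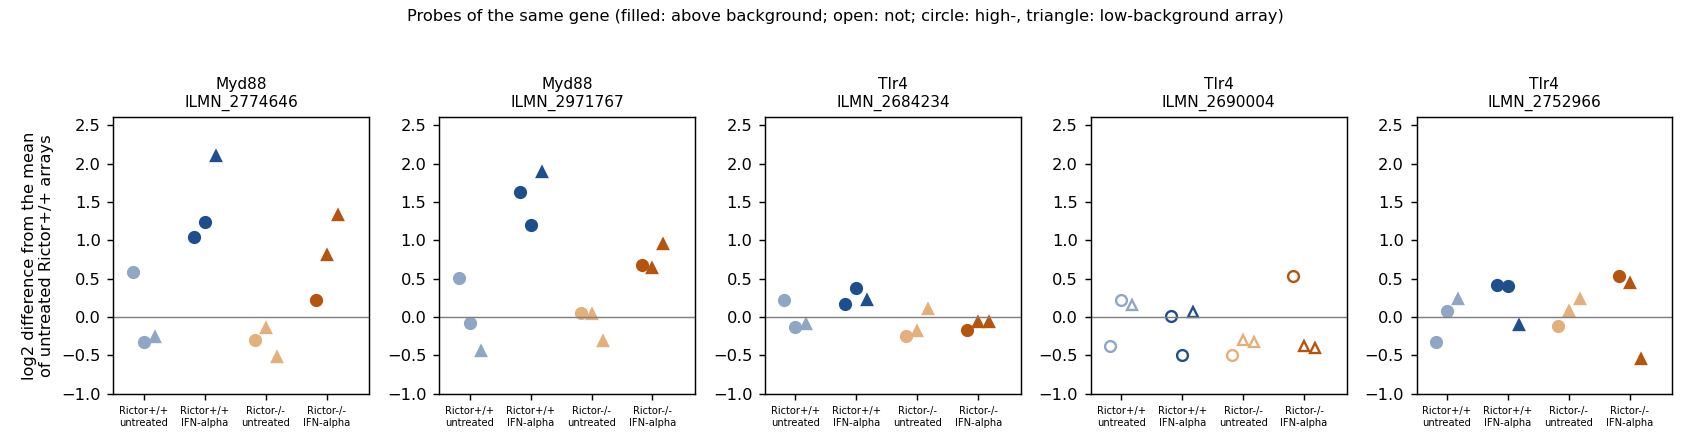
Log2 difference of each array from the probe's own mean over the untreated Rictor+/+ arrays, for the 2 Myd88 and 3 Tlr4 probes, by group (filled above background, open below it, circles for high and triangles for low background). The Myd88 probes move together (r = 0.93), and the Tlr4 probes correlate at -0.24 to 0.38.

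Ticam1, the adaptor of Tlr3, was near background. Its probe ILMN_1256875 was above background on 1 of 3 arrays of untreated Rictor+/+ cells, on none of the treated ones, on 2 of untreated Rictor-/- and on 1 of treated Rictor-/- cells. It read 5.20, 5.19 and 5.92 in untreated and 5.34, 5.17 and 5.19 in treated Rictor+/+ cells. The Rictor-/- arrays read 6.77, 5.65 and 6.12 untreated and 5.33, 6.58 and 5.42 treated. No Ticam1 comparison was called on all 12 arrays, and the largest was the untreated genotype difference of 0.74 ± 0.36 (limma adjusted p = 0.228). That difference was 1.57 within the high set, where it was called against the lone array 3 (limma adjusted p = 0.047), and -0.04 within the low set.

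Among the members, Tlr3 and Myd88 followed each other most closely over the 12 arrays (Pearson r = 0.92), and Tlr2 correlated with Cd14 at 0.59, with Tlr3 at 0.56 and with Myd88 at 0.40. Tlr4 and Cd14 ran opposite (r = -0.64). These arrays share treatment groups and background sets, so the correlations are descriptions. The 3 named genes closest to each member, by Pearson r over 12 arrays among 8406 genes, were Il15 (0.947), Elf1 (0.942) and Plekhf2 (0.935) for Tlr2. For Tlr3 they were 4930599N23Rik (0.984), Rtp4 (0.983) and Gvin1 (0.98). For Myd88 they were Wdfy1 (0.98), Hap1 (0.969) and Atm (0.968), and for Cd14 S100a7a (0.99), Timp1 (0.99) and Seh1l (0.987). For Tlr4 they were Serpinb9f (0.88), Edem1 (0.859) and Grtp1 (0.854), and for Ticam1 Ifngr1 (0.927), Olfml2b (0.906) and Klhl8 (0.886). Ticam1 was above background on at most 2 arrays of any group, so its correlations rest largely on values near background. Those of Tlr4 are for probe ILMN_2684234, which correlated at 0.05 with ILMN_2752966, the other Tlr4 probe above background.

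The other genes of the pathway were taken as lists. Of 9 other Toll-like receptors, 1 had a named probe and was fitted. Tlr6, the partner of Tlr2 for diacylated lipopeptides, was lower in Rictor-/- cells, with a log2 difference of -1.14 ± 0.31 untreated (limma adjusted p = 0.0282) and -1.48 ± 0.31 with IFN-alpha (limma adjusted p = 0.00523). It read 7.13 to 7.99 on the untreated and 6.99 to 7.93 on the treated Rictor+/+ arrays, and 6.21 to 6.44 and 5.77 to 6.51 on the Rictor-/- arrays. The untreated call was lost without array 1, 3, 7 or 11. Tlr6 was called in neither IFN response.

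Of 8 co-receptors and trafficking proteins, 4 were fitted. Unc93b1, which escorts Tlr3 and the other nucleic acid receptors to endosomes, was detected only in Rictor+/+ cells. It read 6.94, 6.98 and 7.32 untreated and 9.22, 8.97 and 8.05 with IFN-alpha, a 3.18-fold rise (1.67 ± 0.30, limma adjusted p = 0.00756). The log2 rise was 2.14 within the high set and 0.73 within the low set. Its limma adjusted p reached 0.0499 when single arrays were left out. On all 6 Rictor-/- arrays Unc93b1 was below background. It was at least 2.11-fold lower there untreated (limma adjusted p = 0.000823) and at least 5.59-fold lower with IFN-alpha (limma adjusted p = 1.14e-06). The difference of its responses was not called (limma adjusted p = 0.0935). Ly96, the lipopolysaccharide-binding partner of Tlr4, and the receptor chaperones Hsp90b1 and Cnpy3 were called in no comparison.

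Tirap, the bridge between Tlr2 or Tlr4 and Myd88, was the 1 gene fitted of 4 other adaptors and was called in no comparison. None of 11 fitted kinases and ubiquitin ligases, of 16 listed, was called in any comparison. Irak1, the kinase recruited by Myd88, changed by -0.62 ± 0.42 with IFN-alpha in Rictor+/+ cells (limma adjusted p = 0.790). Ikbke, a kinase for Irf3, changed by 0.93 ± 0.24 there (limma adjusted p = 0.0829).

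All 10 listed inhibitors were fitted. With IFN-alpha 1 was raised in Rictor+/+ cells, against 1.95% of features. None was called in Rictor-/- cells, where 0.736% of features were raised and 0.0323% lowered. Socs1, which restrains cytokine and Toll-like receptor signalling, rose by 2.63 ± 0.43 in Rictor+/+ cells (limma adjusted p = 0.00292). Socs1 was above background on 1 of 3 untreated arrays of each genotype, so the size of its rise depends on the background. With IFN-alpha it was lower in Rictor-/- cells, with a difference of -2.15 (limma adjusted p = 0.00376). Between untreated lines 2 inhibitors were higher in Rictor-/- cells, against 5.81% of features, and 2 were lower, against 6.22%. With IFN-alpha 1 was higher, against 6.61%, and 3 were lower, against 8.18%. Nfkbia, which holds NF-kappaB in the cytoplasm, was higher in Rictor-/- cells by 0.89 untreated (limma adjusted p = 0.00694) and by 1.53 with IFN-alpha (limma adjusted p = 8.5e-05). Tnfaip3 (A20), which edits ubiquitin chains, was lower, with differences of -0.86 (limma adjusted p = 0.0182) and -1.56 (limma adjusted p = 0.000209). The untreated Tnfaip3 call was lost without array 3, 7 or 9. Sigirr, an inhibitory receptor, was at least 1.4-fold lower untreated and at least 1.22-fold lower with IFN-alpha, since it was below background on every Rictor-/- array. The Sigirr call with IFN-alpha was lost without array 6, 8 or 12 (highest limma adjusted p = 0.136). Tollip, named after its values were seen, was higher by 0.74 untreated (limma adjusted p = 0.0404), a call lost in 9 of the 12 fits that left out 1 array (highest limma adjusted p = 0.134).

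Of 11 transcription factors, 7 were fitted. With IFN-alpha 2 were raised in Rictor+/+ and 1 in Rictor-/- cells, against 1.95% and 0.736% of features. In untreated Rictor-/- cells 2 were lower than in Rictor+/+ cells, against 6.22%, and with IFN-alpha 3 were lower, against 8.18%. Irf7, which drives interferon genes, was below background on all untreated arrays and rose at least 39.5-fold in Rictor+/+ and at least 20.5-fold in Rictor-/- cells. Irf5, which works downstream of Myd88, rose by 3.22 ± 0.54 in Rictor+/+ cells (limma adjusted p = 0.00413) and was lower in IFN-treated Rictor-/- cells, with a difference of -2.27 (limma adjusted p = 0.0123), a call lost without array 2 (limma adjusted p = 0.0612). Nfkbiz, a cofactor of NF-kappaB, was lower in Rictor-/- cells, with differences of -2.01 untreated (limma adjusted p = 0.00194) and -1.58 with IFN-alpha (limma adjusted p = 0.0082). Atf3, a repressor induced by stress and by Toll-like receptors, was lower too, at -1.27 (limma adjusted p = 0.0236) and -1.28 (limma adjusted p = 0.0194). The untreated Atf3 call was lost without array 1, 5, 7 or 11 (highest limma adjusted p = 0.102), and the call with IFN-alpha without array 2 or 8 (highest limma adjusted p = 0.0932). Irf3, the factor reached through Ticam1, was called in no comparison.

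Of 18 cytokines, chemokines and other targets, 8 were fitted. IFN-alpha raised 5 in Rictor+/+ and 1 in Rictor-/- cells, against 1.95% and 0.736% of features. The median change over the 8 was 1.58 and 0.38, and over all features it was -0.04 in both. Cxcl10, a chemokine for T cells, read 8.14, 8.01 and 6.88 in untreated and 14.17, 14.34 and 13.95 in treated Rictor+/+ cells. It rose by 6.48 there (limma adjusted p = 2.94e-07) and at least 20.5-fold in Rictor-/- cells, where it read 11.13, 10.07 and 9.86 after IFN-alpha. Ccl5, another T cell chemokine, rose by 1.35 in Rictor+/+ cells (limma adjusted p = 0.0169), a call lost when any of 5 single arrays was left out. It was at least 13-fold lower in untreated Rictor-/- cells, where it lay below background on all 3 arrays. The monocyte chemokine Ccl2 rose by 1.80 in Rictor+/+ cells (limma adjusted p = 0.000304). With IFN-alpha it was lower in Rictor-/- cells, with a difference of -1.48.

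Il6, the cytokine, was the 1 target whose response was called different between the genotypes. It read 5.21, 5.52 and 5.76 in untreated and 7.86, 7.68 and 7.96 in treated Rictor+/+ cells, a change of 2.34 ± 0.22 (limma adjusted p = 1.48e-05). In Rictor-/- cells it read 5.67, 5.22 and 5.15 untreated and 5.90, 5.80 and 5.97 treated, above background on 1 of these 6 arrays. The difference of responses was -1.79 ± 0.31 (limma adjusted p = 0.0209), and it was lost in 8 of the 12 fits that left out 1 array (highest limma adjusted p = 0.0707). Between untreated lines 1 of the 8 targets was higher in Rictor-/- cells, against 5.81% of features, and 2 (Ccl5 and Cxcl10) were lower, against 6.22%. With IFN-alpha 1 was higher, against 6.61%, and 5 were lower, against 8.18%. The others, named after their values were seen, were Ccl7, which rose by 2.07 in Rictor+/+ cells and differed by -2.31 between the treated lines, and Ptgs2, the prostaglandin synthase, which was higher in Rictor-/- cells by 1.29 untreated and by 1.36 with IFN-alpha. The Ptgs2 calls were lost without array 1, 5, 7 or 11 untreated and without array 4, 10 or 12 with IFN-alpha.

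**Figure D4:**
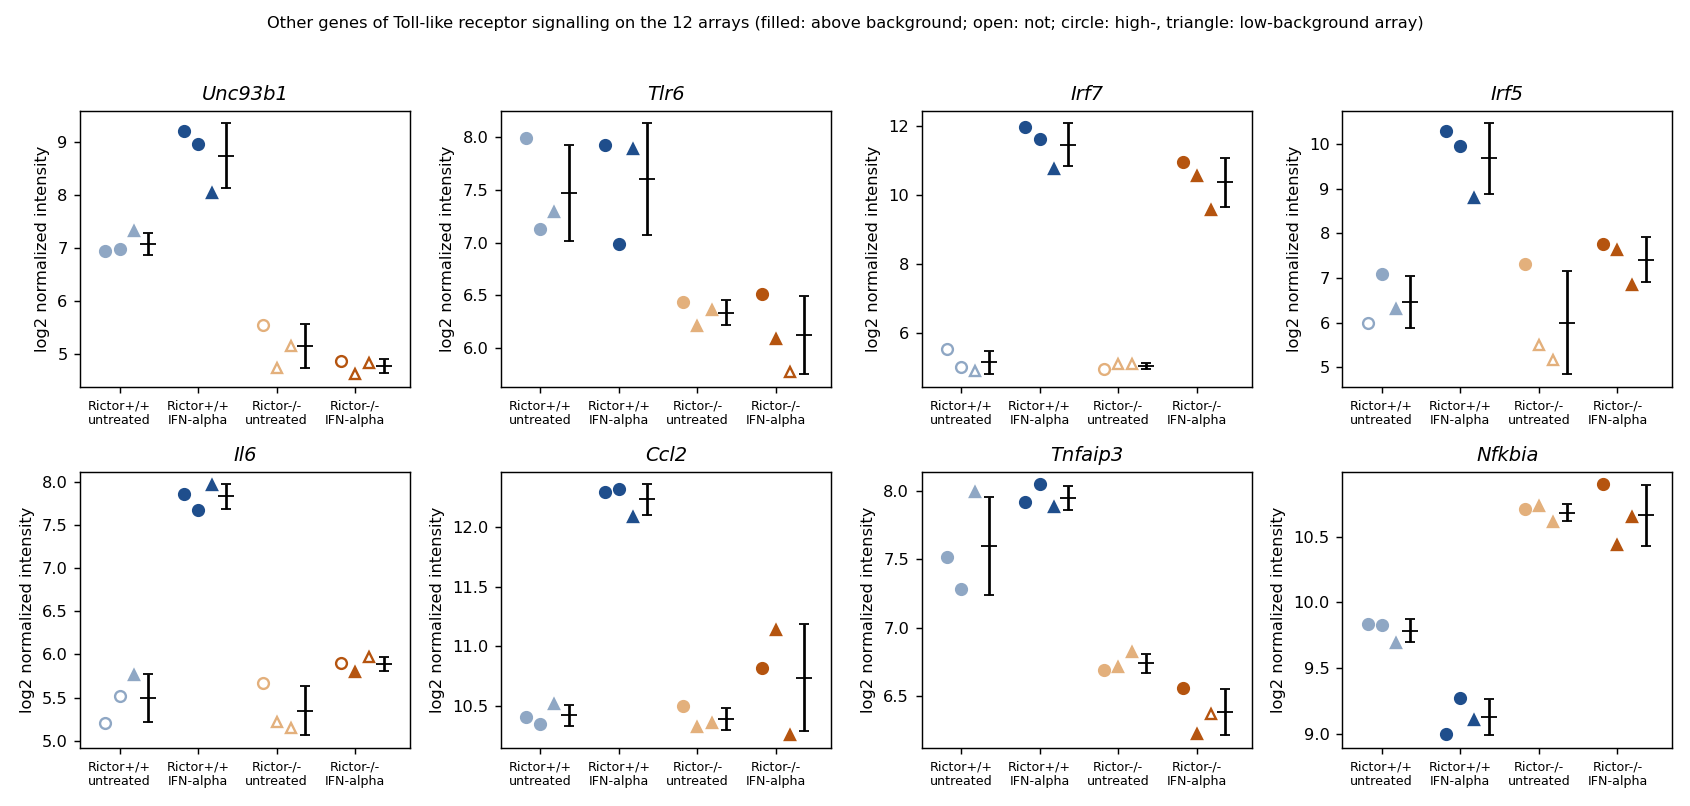
Normalized log2 intensity of Unc93b1, Tlr6, Irf7, Irf5, Il6, Ccl2, Tnfaip3 and Nfkbia on the 12 arrays, by group, each panel with its own y axis (filled above background, open below it, circles for high and triangles for low background, bars for mean ± SD). Unc93b1 is below background on all 6 Rictor-/- arrays, and Irf7 is above background on the 6 IFN-treated arrays alone.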

How the data were processed

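Total RNA of 12 MEF samples was labelled with biotin and hybridized to 12 arrays. Per the submitters' processing notes BeadStudio was used, and its settings are not given in the sources used here. The authors deposited a table of non-normalized intensity per probe on a linear scale, with no detection p-values or control probes, and a table of log2 values of 17003 probes, whose normalization is not stated. Of those 17003 probes 14461 name 1 gene in the annotation, 5 several and 2537 none, and probes outside that table carry no name here.

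Here limma 3.58.1 in R 4.3.3 was used. Each array's background was its most frequent signal (the mode), and the signals under that mode gave its SD. The normexp correction (offset 16) was followed by quantile normalization and log2. A probe was above background at an upper-tail probability under 0.01, and 22271 probes above it on at least 3 of 12 arrays were kept. The brightest probe stood for a named gene. The linear model held 1 mean for each group and used all 12 arrays (8 residual and 4.71 prior degrees of freedom), and tests were two-sided. "At least" folds are set against the background limit where no array of a group was above background. Log2 changes had a median SE of 0.29 between groups and 0.41 between responses. For arrays their number limits the precision.

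The members, the pathway lists and the markers were chosen with earlier results of these data known. Named are all members, the 3 genes most like each, and up to 4 called genes per list by lowest p. Pathway genes that were not called are named for their roles, outside this rule. Within a group, arrays correlated at 0.951 to 0.989. The fit was tested on simulated data. Alternatives changed the background correction, offset, scaling, filter, probe choice, source table, array weights, background set and samples in the fit.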

Additional observations from a re-analysis of the deposited data

Results flagged for a closer look

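The responses of Il6 to IFN-alpha were called different between the genotypes by a test of the difference itself. The difference was -1.79 on the log2 scale (Rictor-/- minus Rictor+/+, limma adjusted p = 0.0209). That call was lost in 8 of the 12 fits that left out 1 array (highest limma adjusted p = 0.0707). Il6 was above background on 1 of the 6 Rictor-/- arrays, and on 1 of the 3 untreated Rictor+/+ arrays, so the fitted size depends on the background.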

How the results depend on the processing

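Counts of called members stayed within 1.5 times of those reported except as follows, and 1 count of the same size held another gene. In the IFN response of Rictor+/+ cells 1 member (Tlr3) was called within the arrays of low background, instead of 3. In that of Rictor-/- cells 0 were called within either background set, instead of 1. For the difference of responses array weights (0.26 on array 12 to 3.96 on array 7) called 1 (Tlr2), instead of 0. Between untreated lines 2 were called within the high set, but Tlr2 and Ticam1 in place of Tlr2 and Cd14. Between IFN-treated lines 1 (Cd14) was called within either set and in a fit of only the groups compared, instead of 2, and 1 to 3 were called when single arrays were left out. The within-set fits rest on fewer arrays; for the others the cause was not tested. With median scaling 1 member was higher and 2 lower (Tlr3 and Myd88) between IFN-treated lines, and the median of all features moved to -0.24 in the IFN response of Rictor-/- cells and to -0.22 between IFN-treated lines.

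Signs turned in 28 cases, all of values that were not called, and the cause was not tested. Ticam1 turned in the IFN response of Rictor+/+ cells within the high set (0.06) and without array 9 (-0.33 to 0.04 over the fits without 1 array), in that of Rictor-/- cells with array weights (0.15) and within the low set (0.12), and between untreated lines within the low set (-0.04). Its difference of responses was 0.01 with median scaling and with the deposited log2 values, 0.04 with cyclic loess, 0.25 with array weights, 0.85 within the low set, and -0.60 to 0.10 without single arrays. Tlr4 in Rictor-/- cells was -0.31 with median scaling, 0.00 with the deposited values, -0.03 within the low set and -0.07 to 0.11 without single arrays. Between untreated lines it was 0.05 within the low set and -0.21 to 0.00 without single arrays. Myd88 between untreated lines was 0.05 with array weights, 0.30 within the low set, and -0.29 to 0.18 without single arrays. Cd14 was 0.13 in the IFN response of Rictor+/+ cells within the low set, -0.06 in that of Rictor-/- cells with median scaling, and -0.08 for the difference of responses within the low set.

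No paired analysis was run, because the labels state no pairing and their array numbers, 1 to 12, are shared by no groups. Blocks of consecutive array numbers were not fitted. A fit of only the groups compared was not run for the difference of responses, which needs all groups. For the pathway genes and fibroblast markers alone, the fits without single arrays and within sets were chosen after seeing the data.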
